A study of Mus musculus with 36 samples.

Results

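The mitochondrial ribosomal protein genes are the nuclear genes named Mrpl and Mrps, which encode the protein components of the ribosome inside mitochondria. The group held every gene symbol of the form Mrpl or Mrps followed by a number and at most 1 letter, with a mean of at least 1 TPM (a relative transcript level corrected for transcript length and scaled to a fixed total per library) over 36 mouse heart libraries. All 78 matching symbols of the 55291 in the tables passed this minimum, and all 78 also passed the count filter that left 19231 genes for testing. By the position of their proteins in the ribosome, 51 belong to the large subunit and 26 to the small subunit. The remaining gene, Mrps36, carries the family name, but its protein is known as a component of the 2-oxoglutarate dehydrogenase complex.

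RNA-Seq was performed on the left ventricle and the atria of CUG960 mice, a model of the heart in myotonic dystrophy type 1. Every mouse in all cohorts was homozygous for TREDT960I, a doxycycline-responsive transgene carrying CUG repeats in human DMPK sequence, and hemizygous for MHCrtTA, which drives the doxycycline-dependent activator from a heart muscle promoter, so that repeat RNA is induced in cardiomyocytes. The +dox cohort received doxycycline (dox) from postnatal day 1. The +/–dox cohort received it from day 1 until 9 weeks of age, and the –dox cohort never received it. The other 3 cohorts were kept on dox and received vectors by tail vein at 9 weeks, AAV9-3XFLAG-MBNL1 (MBNL1 cohort), AAV9-3XMYC-MBNL2 (MBNL2 cohort) or both (MBNL1+MBNL2 cohort), each driven by the human TNNT2 promoter. Tissue was taken at 21 weeks of age, which was 12 weeks after the vectors. Each of the 12 groups of chamber and cohort held 3 libraries, labelled as biological replicates, and the study took both chambers from the same mice. By the study's sample list the MBNL1+MBNL2 mice were all male, whereas every other cohort held both sexes.

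The ribosome of mitochondria translates the mRNAs of the mitochondrial genome, all of which encode subunits of the respiratory chain and ATP synthase. Its RNAs come from mitochondrial DNA, whereas every one of its proteins is encoded in the nucleus, made in the cytosol and imported. Heart muscle is dense in mitochondria, and loss of single proteins of this ribosome, such as those encoded by Mrpl3, Mrpl44 and Mrps22, is known to cause inherited cardiomyopathy.

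Library totals ran from 55031987 to 97091184 expected counts, and the smallest count of any member in any library was 565, for Mrpl57. The mRNAs of mitochondrial DNA took 14.4% to 17.9% of counts in ventricle libraries and 8.91% to 10.3% in atrial libraries. Library 1 of the ventricular MBNL1 group stood apart, with 16885 genes above 0, where the other ventricle libraries had 20578 to 24041. Markers matched the chambers: in –dox mice all 5 ventricular cardiomyocyte markers were called higher in the ventricle and all 5 atrial ones lower. Counts under the mouse symbol Mbnl1 were 227 to 282 CPM (counts scaled to a common library size) in the ventricles of the MBNL1 cohort and 206 to 224 in +dox mice. For Mbnl2 they were 327 to 408 CPM in the MBNL2 cohort and 352 to 375 in +dox mice, which overlap, so this mouse symbol gave no check of the MBNL2 label. In MBNL1+MBNL2 ventricles Mbnl1 was 215 to 270 CPM and Mbnl2 374 to 395 CPM, and both overlapped +dox mice. By the study's account the vectors encode human MBNL1 and MBNL2. In both chambers library 3 was the female one of every cohort but MBNL1+MBNL2, since Xist lay above the summed Y-linked genes in these libraries and in no others. In bulk tissue, fewer cells of a type and less RNA per cell cannot be told apart.

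Levels differed widely among the members, with a median of 38.6 TPM and a 67.4-fold range between the extremes. Mrpl42 had the highest mean over the 36 libraries, 372 TPM, followed by Mrps21 with 242 TPM, Mrpl30 with 180 TPM, Mrpl33 with 172 TPM and Mrps23 with 144 TPM. Together these 5 made up 25.6% of the summed TPM of the family. Mrpl19, at 5.52 TPM, was the lowest, and Mrpl57, Mrpl47, Mrps26 and Mrpl32 lay between 6.50 and 7.37 TPM. Although the proteins of all members but Mrps36 sit in 1 particle, only 59 of the 78 transcripts lay between 10 and 100 TPM, with 11 at 100 or above and 8 under 10. Large subunit genes had a median of 39.5 TPM and small subunit genes of 33.3 TPM.

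The family as a whole was close in summed level between chambers on the TPM scale. In +dox mice the sum was 4510 to 4597 TPM in the ventricle and 4464 to 4652 TPM in the atria, so the ranges overlapped. In –dox mice it was 4083 to 4234 TPM in the ventricle and 4117 to 4184 TPM in the atria, which also overlapped. With TPM rescaled over nuclear genes alone, the sums did not overlap. They were 6427 to 6603 in the ventricle and 5613 to 5985 in the atria of +dox mice. In –dox mice they were 5863 to 6021 and 5151 to 5337. Counts scaled by the trimmed mean of M values (TMM), which sets the bulk of genes equal between libraries, gave another picture. On that scale the family summed to 3321 to 3445 CPM in the +dox ventricle and 2185 to 2460 CPM in the +dox atria.

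The chambers were compared first in –dox mice, which do not express the repeat. On the TMM scale 72 of the 78 genes were higher in the ventricle and 1 was lower at an adjusted p under 0.05 (edgeR quasi-likelihood test, Benjamini-Hochberg over all genes tested), where 20.3% of all genes were higher and 22.3% lower. The median log2 fold change of the members was 0.60, against -0.03 for all genes. Both subunits took part, with 49 of 51 large subunit genes higher and none lower, and with 22 of 26 small subunit genes higher and 1 lower. At a fold change of at least 1.5, 40 genes were higher and 1 lower, against 11.2% and 13.7% of all genes. In +dox mice 70 genes were higher and 1 was lower (background 21.6% and 22%), with a median of 0.57.

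**Figure D1:**
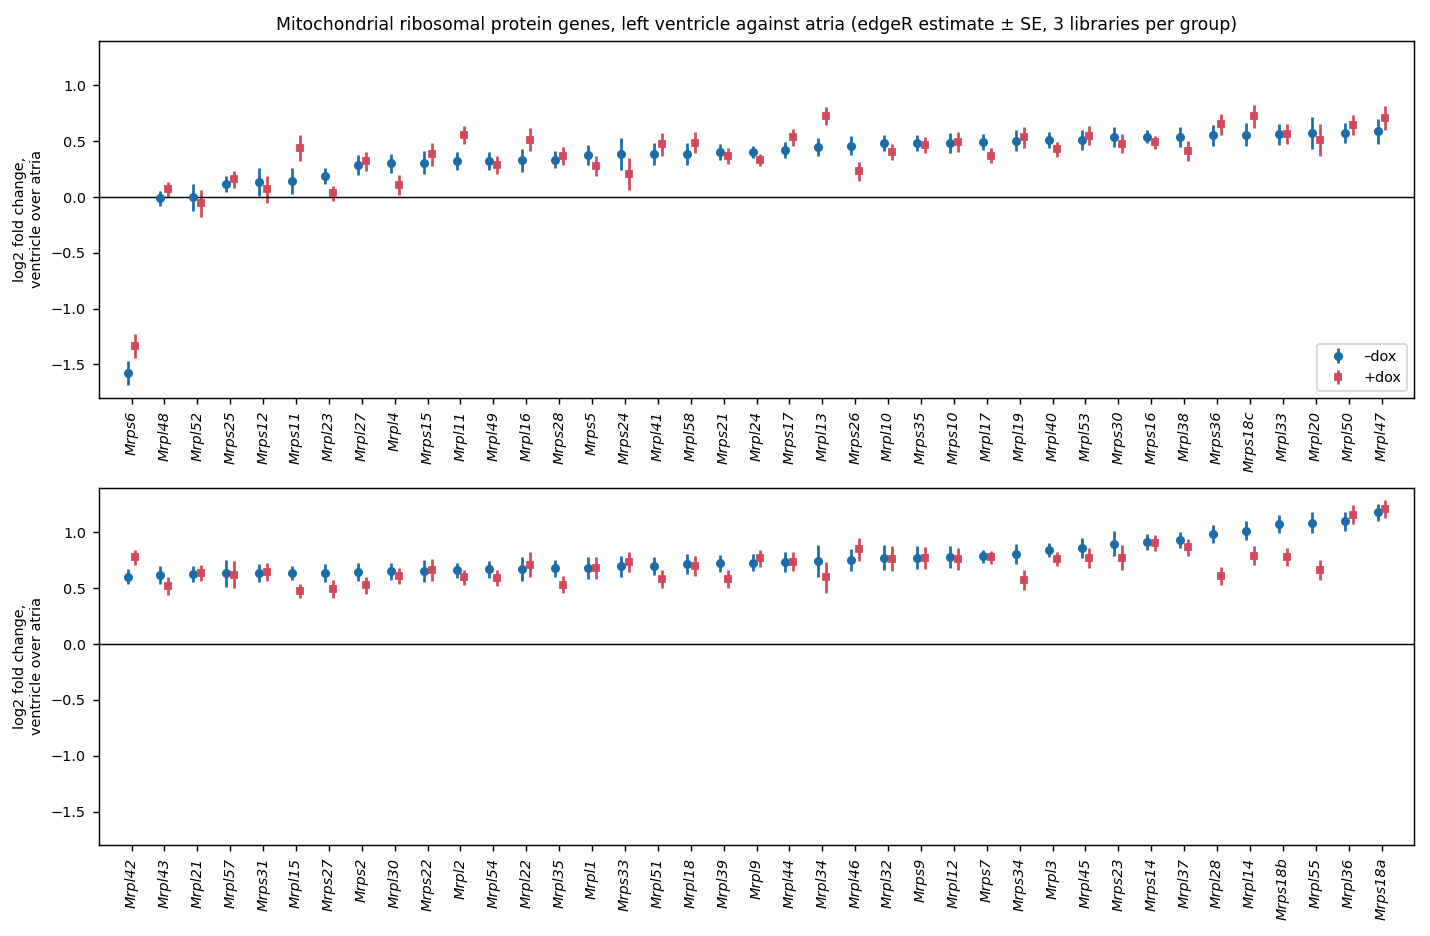
The 78 genes are ordered by their log2 fold change of left ventricle over atria in –dox mice (blue circles), with +dox mice as red squares and bars of 1 SE (edgeR, 3 libraries per group). Mrps6 lies far below 0 in both cohorts, Mrpl48 and Mrpl52 lie near 0, and Mrps18a has the highest value in both.

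Mrps18a had the largest ventricular excess. Its protein is 1 of 3 vertebrate forms related to bacterial S18 and sits in the large subunit despite its name, and the gene lies at chr17:46110986-46128910 on the plus strand (GRCm38). In –dox mice its levels were 46.9, 50.7 and 48.7 CPM in the ventricle and 22.8, 22.5 and 19.2 CPM in the atria. Every ventricle library was thus above every atrial one, and the log2 fold change was 1.18 ± 0.08 (SE, edgeR adjusted p = 1.12e-13), or 2.27-fold. In +dox mice the difference was 1.21 ± 0.08 (edgeR adjusted p = 6.02e-14). Its relatives were also higher in the –dox ventricle, Mrps18b by 1.08 ± 0.08 and Mrps18c by 0.56 ± 0.10 on the log2 scale.

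Mrpl36, a small large subunit protein, followed with 25.5, 25.4 and 27.2 CPM in the –dox ventricle and 13.1, 11.8 and 11.5 CPM in the atria, a log2 fold change of 1.10 ± 0.09. The groups did not overlap, but Mrpl36 overlaps Ndufs6 on the opposite strand. Since the strand setting of the count is not given, reads of the pair may not be separated. The same limit holds for all 23 members that overlap a coding gene on the opposite strand. Among them are Mrps18a (Rsph9), Mrpl14 (Tmem63b), Mrpl44 (Wdfy1), Mrpl13 (Mtbp), Mrps25 (Nr2c2) and Mrpl33 (Rbks). Ndufs6, a complex I subunit, was itself higher by 1.43 ± 0.08. In –dox mice Mrpl55 (1.09 ± 0.09), the above Mrps18b, Mrpl14 (1.02 ± 0.08) and Mrpl28 (0.98 ± 0.08) came next, and in +dox mice Mrps14 (0.90 ± 0.07) and Mrpl37 (0.87 ± 0.07). Mrpl14 and Mrpl28 are given here because their values were seen to be high. Among genes fixed for their roles, Mrpl3, near the catalytic centre, differed by 0.84 ± 0.06, the stalk protein gene Mrpl12 by 0.78 ± 0.10 and Mrpl44 by 0.74 ± 0.09 in –dox mice.

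Mrps6 went the other way. Its levels were 23.2, 23.1 and 21.9 CPM in the –dox ventricle and 73.7, 68.9 and 61.3 CPM in the –dox atria. No library of one chamber reached the other, and the gene was 2.99-fold lower in the ventricle (log2 fold change -1.58 ± 0.11, edgeR adjusted p = 2.39e-13). In +dox mice it was 31.8, 31.8 and 32.0 CPM in the ventricle and 91.9, 83.5 and 66.4 CPM in the atria, 2.53-fold lower (-1.34 ± 0.11). Mrps6, a small subunit gene at chr16:92058270-92112227 (GRCm38, plus strand), shares its strand and locus with Slc5a3, the sodium and myo-inositol cotransporter gene, whose RefSeq start lies 14 bases away. Slc5a3 was 8.31, 11.5 and 8.52 CPM in the –dox ventricle and 32.2, 35.3 and 29.9 CPM in the –dox atria, a log2 fold change of -1.78 ± 0.18. How reads of the shared stretch were divided between both genes was not tested. The 5 members not called in –dox mice were Mrpl48 (-0.01), Mrpl52 (0.00), Mrps25 (0.12), Mrps12 (0.14) and Mrps11 (0.15).

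The size of the chamber difference depended on the scale. With limma on log2(TPM + 1), 19 members were higher and 13 lower in the –dox ventricle, and 21 and 13 in +dox mice, against 6.79% of all genes higher and 55.2% lower in –dox mice and 7.07% and 53.8% in +dox mice. All genes together shifted by a median of -0.32 in –dox mice. Against that median, 71 of 78 members still lay above it in –dox mice, and the members' median minus that of all genes was 0.36, against 0.62 with TMM. Mrps6 stayed lower (-2.09 ± 0.10) and Mrps18a (0.62 ± 0.08), Mrpl55 (0.52 ± 0.07) and Mrpl36 (0.54 ± 0.10) stayed higher, whereas Mrpl52 (-0.55 ± 0.12) and Mrpl48 (-0.47 ± 0.08) were now called lower. mRNAs of mitochondrial DNA took 26.6% to 31.7% of TPM in the ventricle and 19.2% to 22.6% in the atria. With TPM rescaled over nuclear genes alone, an alternative added after the data were seen, 40 members were higher and 5 lower in –dox mice (9.79% and 46.6% of all genes), with a median of 0.21 against -0.22 for all genes.

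**Figure D2:**
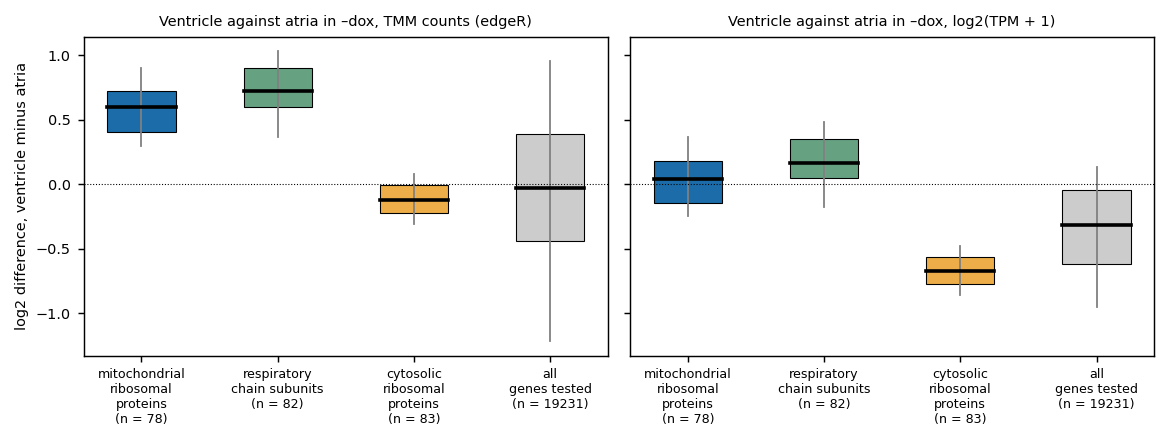
Each box gives the middle 50% of genes, the bar the median and the line the range from the 10th to the 90th percentile of the log2 difference, ventricle minus atria, in –dox mice, with TMM-scaled counts on the left and log2(TPM + 1) on the right. The 78 members have medians of 0.60 and 0.04 and lie above all genes (-0.03 and -0.32) in both panels, below the respiratory chain subunits (0.73 and 0.16) and above the cytosolic ribosomal proteins (-0.12 and -0.67).

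Other genes of mitochondrial protein synthesis were compared on the TMM scale in –dox mice, where the background is 20.3% higher and 22.3% lower. All 5 ribosomal proteins without the family name were higher, among them Ptcd3 (0.97 ± 0.10), an RNA-binding protein of the small subunit, and Dap3 (0.41 ± 0.07). Of 18 translation factors 16 were higher and none lower, led by the recycling factor Gfm2 (1.18 ± 0.08), the elongation factor Tufm (1.04 ± 0.08) and the mRNA stability factor Lrpprc (1.01 ± 0.08). Of 17 aminoacyl-tRNA synthetases 14 were higher and none lower, and of 26 assembly factors 16 were higher and 1 was lower. Among 82 respiratory chain subunits 79 were higher and 2 lower, and all 13 mRNAs of mitochondrial DNA were higher, with a median of 1.00. Of 83 cytosolic ribosomal proteins 4 were higher and 27 lower. Differences between lists were not tested.

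Markers of other cells moved with the chamber as well. In –dox mice 7 of 10 general cardiomyocyte markers were higher in the ventricle and none was lower, while 6 of 7 fibroblast markers and 7 of 7 macrophage markers were lower. The summed fibroblast markers were 1221 to 1487 CPM in the ventricle and 2106 to 2428 CPM in the atria, and the macrophage markers were 153 to 169 and 282 to 302 CPM. Epicardial and mesothelial markers were lower as well, at 5.62 to 6.63 and 107 to 161 CPM. Other sums were higher in the ventricle, with endothelial markers at 736 to 847 and 607 to 650 CPM. Mural markers were at 736 to 915 and 325 to 458 CPM, and white fat markers at 319 to 394 and 112 to 154 CPM. None of these markers was at 0 in every library. Their part in the difference of the members was not tested.

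The promoters of the members were searched for 5 motifs. RefSeq promoter windows (GRCm38.p6, from 250 bases before to 50 after the start) were held for 69 of the 78 genes. The NRF1 motif, GCGC, any base and TGCGC, was found in 13 of these windows (18.8%, against 4.78% of all 27025 windows), the ETS motif CCGGAAGT bound by GABPA in 11 (15.9% against 4%) and the YY1 motif AAGATGGC in 12 (17.4% against 2.88%), searched on both strands. At least 1 of the 3 was found in 33 windows (47.8%, against 10.8% of all windows, 41.8% of those of respiratory chain subunits and 32.8% of those of cytosolic ribosomal proteins). By single motif, NRF1 was in 23.9% of respiratory chain windows and ETS in 19.7% of cytosolic ribosomal protein windows, both above the share in the members. The E-box CACGTG, at 7.25% against 7.24%, and TATAAA, at 5.8% against 14.2%, were not above the share in all windows. A match is a description of letters and not of binding. Below are the bases upstream of annotated exons for Mrps6, the gene that went against the family, and for Mrpl45 and Mrps22. Among members with an NRF1 match in such bases, Mrpl45 was chosen for the largest ventricular excess in –dox mice. Mrps22 was chosen in the same way among members with an ETS match. Capitals mark the motifs, and each run is read along the strand of its gene.
Mrps6, chr16:92058120-92058269, plus strand: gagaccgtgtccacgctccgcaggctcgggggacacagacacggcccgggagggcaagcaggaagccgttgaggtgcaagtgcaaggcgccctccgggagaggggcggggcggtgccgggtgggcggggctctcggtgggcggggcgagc
Mrpl45, chr11:97315566-97315715, plus strand: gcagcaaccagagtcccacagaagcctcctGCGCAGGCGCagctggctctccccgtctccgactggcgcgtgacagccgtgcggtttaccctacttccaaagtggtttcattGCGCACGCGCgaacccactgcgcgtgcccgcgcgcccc
Mrps22, chr9:98601680-98601829, minus strand: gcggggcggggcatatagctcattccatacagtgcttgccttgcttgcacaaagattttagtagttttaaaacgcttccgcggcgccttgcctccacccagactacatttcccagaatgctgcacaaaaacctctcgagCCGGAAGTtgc
The matches of Mrpl45 lie 120 and 38 bases before its start and that of Mrps22 lies 11 bases before. None of the 5 motifs was found in the printed stretch of Mrps6, which ends 66 bases before its start. Mrpl45, whose protein anchors the ribosome to the inner membrane, was higher in the –dox ventricle by 0.86 ± 0.09, and Mrps22 by 0.66 ± 0.10. Both genes were chosen by these differences.

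To ask how the family differed with dox-induced repeat RNA, –dox mice were compared with +dox mice. Effects of dox itself and of the repeat RNA cannot be told apart in this or the +/–dox comparisons. No mouse received dox without both transgenes. In the ventricle 7 members were higher and 13 lower in –dox mice (background 9.64% and 11.3%), which in percent was 8.97 and 16.7. The median was -0.04 against 0.01 for all genes, and no member reached a fold change of 1.5, where 3.47% of all genes were higher and 4.13% lower by that rule. The largest change among called members was 1.4-fold. Summed over the family, –dox ventricles held 4083 to 4234 TPM, below the 4510 to 4597 TPM of +dox ventricles. Sums in CPM overlapped, at 3180 to 3443 and 3321 to 3445. In +/–dox ventricles the sum was 4063 to 4541 TPM, which overlapped +dox. Small subunit genes gave 1 rise and 6 falls, and large subunit genes 6 rises and 7 falls.

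Mrps6 fell most without dox. It was 31.8, 31.8 and 32.0 CPM in the +dox ventricle and 23.2, 23.1 and 21.9 CPM in the –dox ventricle, so the groups lay well apart, with a log2 fold change of -0.49 ± 0.11 (edgeR adjusted p = 0.00138). Slc5a3, its neighbour, had a log2 fold change of 0.04 ± 0.18 here (edgeR adjusted p = 0.90) and of -0.38 ± 0.18 between +/–dox and +dox ventricles (edgeR adjusted p = 0.15). Mrpl16, a large subunit protein next to the catalytic centre, was 45.6, 48.9 and 44.5 CPM in +dox mice and 36, 35.2 and 31.3 CPM in –dox mice, again without overlap (-0.44 ± 0.11, edgeR adjusted p = 0.00282). Mrps10, a protein of the head of the small subunit, was 23.1, 23.1 and 21.7 CPM with and 18.3, 16.4 and 15.6 CPM without dox (-0.43 ± 0.09, edgeR adjusted p = 7.24e-04). Of the 20 calls, 8 held whichever 1 library was left out, those of Mrps6, Mrpl16, Mrps10, Mrpl13, Mrpl54, Mrps25, Mrps2 and Mrpl3, and that of Mrpl11 was lost each time. Mrps11 (-0.43 ± 0.12), Mrpl13, Mrps25, Mrpl54, Mrpl27, Mrpl41, Mrps22 (-0.29 ± 0.10), Mrpl33, Mrpl11 and Mrps21 fell as well, all by less than 1.36-fold. Mrps11 overlaps Mrpl46 on the opposite strand, and its call was lost without library 2 of the +dox ventricle (edgeR adjusted p = 0.055).

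The 7 rises were led by Mrps2, of the small subunit, with 27.7, 29.4 and 29.5 CPM in +dox mice and 38.9, 36.2 and 33.8 CPM in –dox mice, where every –dox library was higher (0.33 ± 0.08, edgeR adjusted p = 0.00199). Mrpl3 was 80.9, 78.6 and 92.8 CPM in +dox mice and 103, 106 and 93.7 CPM in –dox mice. The groups barely parted, since the lowest –dox library was just above the highest +dox library, and the log2 fold change was 0.26 ± 0.06 (edgeR adjusted p = 0.00219). Mrpl55 (0.30 ± 0.09), Mrpl38 (0.25 ± 0.09), Mrpl9 (0.24 ± 0.08), Mrpl35 (0.23 ± 0.08) and Mrpl39 (0.21 ± 0.08) also rose, though CPM overlapped between groups for Mrpl38 and Mrpl35. Among all 20 called members, rises and falls, 17 had groups that did not overlap. On the log2(TPM + 1) scale the split of this comparison was 3 higher and 17 lower, against 5.95% and 11.8% of all genes. Leaving out library 1 of the +dox ventricle gave 12 called members, library 2 of that group 13, and library 1 of the –dox ventricle 12, against 20 with all libraries.

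**Figure D3:**
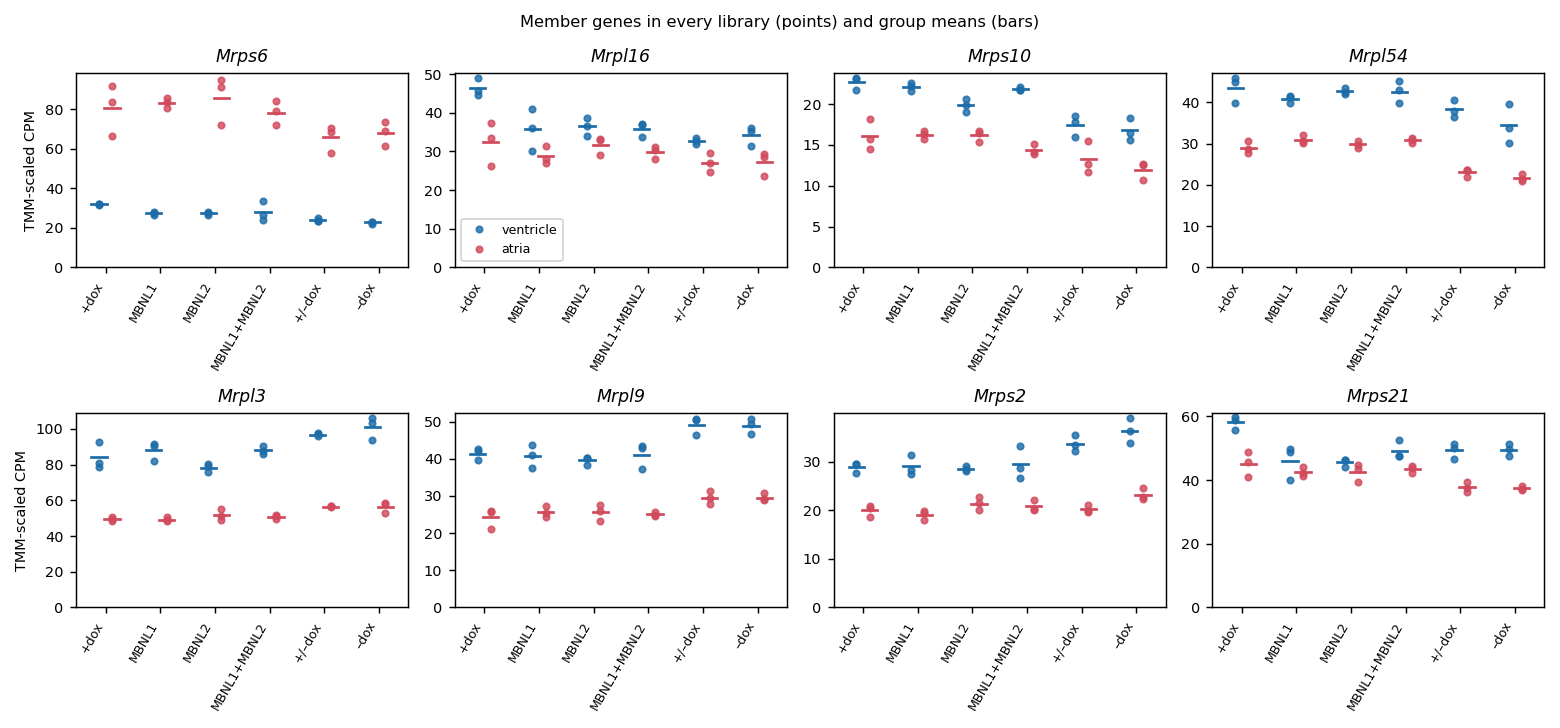
Points are single libraries and bars group means, in TMM-scaled CPM on axes from 0, for 8 members in the 6 cohorts, with the ventricle in blue and the atria in red. Mrps6 is the only gene of the 8 with atrial levels above ventricular levels. Mrps10, Mrpl54, Mrpl3, Mrpl9 and Mrps21 were called between –dox and +dox mice in both chambers. Of these, Mrps10 and Mrpl54 kept the call in both chambers whichever 1 library was left out.

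Other lists were read in the same ventricular comparison (background 9.64% and 11.3%), with no test between lists. Of 82 respiratory chain subunits 10 rose and 3 fell, of 18 translation factors 2 rose, among them Lrpprc (0.43 ± 0.08), and of 26 assembly factors 5 rose, among them the GTPase gene Noa1 (0.43 ± 0.09). Among 83 cytosolic ribosomal proteins 1 rose and 33 fell, for example Rps7 (-0.34 ± 0.06) and Rpl38 (-0.45 ± 0.09). Endothelial markers rose in 5 of 6 cases and mural markers in 4 of 6. The endothelial sum was 549 to 589 CPM in the +dox ventricle and 736 to 847 CPM in the –dox ventricle, and the mural sum 571 to 678 and 736 to 915 CPM. Their part in the changes of the members was not tested.

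Withdrawal of dox at 9 weeks was compared with continued dox in the +/–dox cohort. In the ventricle 11 members were higher and 14 lower than in +dox mice (background 10.6% and 11.1%), with a median of -0.03. None reached 1.5-fold, against 3.09% and 3.52% of all genes. Mrpl16 was 32.0, 32.7 and 33.4 CPM in +/–dox mice, below all +dox libraries (-0.50 ± 0.11, edgeR adjusted p = 8.74e-04, 1.42-fold lower). Mrps6 (-0.41 ± 0.11), Mrps10 (-0.38 ± 0.09) and Mrpl13 (-0.35 ± 0.08) were also lower. Among the rises Mrpl38 stood first, with 32.8, 37.0 and 34.3 CPM in +dox mice and 46.4, 41.8 and 50.9 CPM in +/–dox mice, which did not overlap (0.42 ± 0.09, edgeR adjusted p = 9.91e-04). It was followed by Mrpl4 (0.31 ± 0.09), Mrpl55 (0.31 ± 0.09), Mrps30 (0.29 ± 0.09), Mrpl17 (0.29 ± 0.07), Mrpl39 (0.27 ± 0.08), Mrpl9 (0.25 ± 0.08), Mrpl37 (0.24 ± 0.07), Mrpl2 (0.24 ± 0.07), Mrps2 (0.22 ± 0.08) and Mrpl3 (0.20 ± 0.06). Of the 25 calls, 8 held whichever 1 library was left out, including those of Mrpl16, Mrps6, Mrps10, Mrpl13, Mrpl38 and Mrpl17. On the log2(TPM + 1) scale 5 were higher and 17 lower (7.04% and 10.2% of all genes), and without library 1 of the +dox or of the +/–dox ventricle 14 and 15 members were called. Endothelial markers rose in 5 of 6 cases and general cardiomyocyte markers in 5 of 10, with 1 fall. The sums were 742 to 749 CPM against 549 to 589 for endothelial markers and 78722 to 82864 CPM against 63206 to 71455 for cardiomyocyte markers, and red blood cell markers, none of them called, summed to 982 to 1136 CPM against 156 to 469. Their part in the changes of the members was not tested. Both comparisons use the same +dox libraries. Set directly against each other, –dox and +/–dox ventricles differed in 0 members (edgeR and DESeq2, background 0.0312% and 0.026%), with 2 lower at an unadjusted p under 0.05, where 4.47% of all genes were lower.

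In the ventricles of the MBNL cohorts, called members were all lower than in +dox mice. Effects of vector delivery and of MBNL cannot be told apart in either chamber. No library came from mice given a vector without MBNL. The MBNL1 cohort had 0 higher and 10 lower (background 4% and 4.96%), with a median of -0.10 against -0.04 for all genes, and none reached 1.5-fold (background 1.14% and 1.51%). Mrpl41, which lies at the exit of the peptide tunnel, was 18.2, 19.1 and 16.4 CPM there and 23.6, 26.4 and 21.8 CPM in +dox mice, without overlap (-0.42 ± 0.10, edgeR adjusted p = 0.00973). Mrps11 (-0.42 ± 0.12), Mrpl13 (-0.39 ± 0.08), Mrpl16 (-0.38 ± 0.11), Mrps36 (-0.37 ± 0.09), Mrps18c (-0.31 ± 0.10) and Mrps18a (-0.25 ± 0.08) fell too. Only the calls of Mrpl13 and Mrps21 held whichever 1 library was left out. Without the MBNL1 library that stood apart, 7 members were called, all lower. Leaving out libraries 1, 2 or 3 of the +dox ventricle gave 6, 5 and 6.

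The MBNL2 cohort had 0 higher and 14 lower (background 3.12% and 4.31%), with a median of -0.13 against 0.00, and none reached 1.5-fold (background 0.77% and 0.749%). Mrpl33 was 34.5, 34.3 and 33.7 CPM there against 48.5, 40.5 and 44.2 CPM in +dox mice, all lower (-0.38 ± 0.09, edgeR adjusted p = 0.0126). Mrps36 (-0.37 ± 0.09), Mrps21 (-0.35 ± 0.07), Mrpl16 (-0.35 ± 0.11) and the most abundant member, Mrpl42 (-0.27 ± 0.07), fell as well. These falls depended on the scale, since log2(TPM + 1) gave 3 higher and 1 lower (7.49% and 1.12% of all genes). They depended on single libraries too, since each of the 6 left out in turn left 3 to 8 called. Of the 14 calls that of Mrps21 held each time, and those of Mrpl16 and Mrps14 were lost each time.

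With both vectors, 0 members were higher and 8 lower (background 3.17% and 5.17%), and none reached 1.5-fold (background 1.04% and 1.61%). Mrps35, a small subunit protein of mitochondria, was 43.5, 47.6 and 43.8 CPM there and 54.5, 58.1 and 59.3 CPM in +dox mice, with no overlap (-0.35 ± 0.07, edgeR adjusted p = 0.00162), and its call held without any 1 library. Mrpl16 was 33.6, 36.8 and 37.1 CPM, again below every +dox library (-0.37 ± 0.11, edgeR adjusted p = 0.0251). Mrpl41 (-0.34 ± 0.10) and Mrps25 (-0.30 ± 0.07) were next. All 3 libraries of this group belong to 1 of 2 sets of library names, which holds only library 3 of the +dox ventricle, and with the set as a term 3 members were called. In the other cohorts the same set is also the female library, so set and sex cannot be told apart there. Without the female +dox library, 8 members were called between male mice, whose library sets then differed. Leaving out libraries 1, 2 or 3 of the MBNL1+MBNL2 ventricle gave 1, 4 and 13 called members, and leaving out libraries 1 or 2 of the +dox ventricle gave 4 and 3. The summed endothelial markers were 599 to 725 CPM over the 3 MBNL cohorts, above the 549 to 589 CPM of the +dox ventricle.

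**Figure D4:**
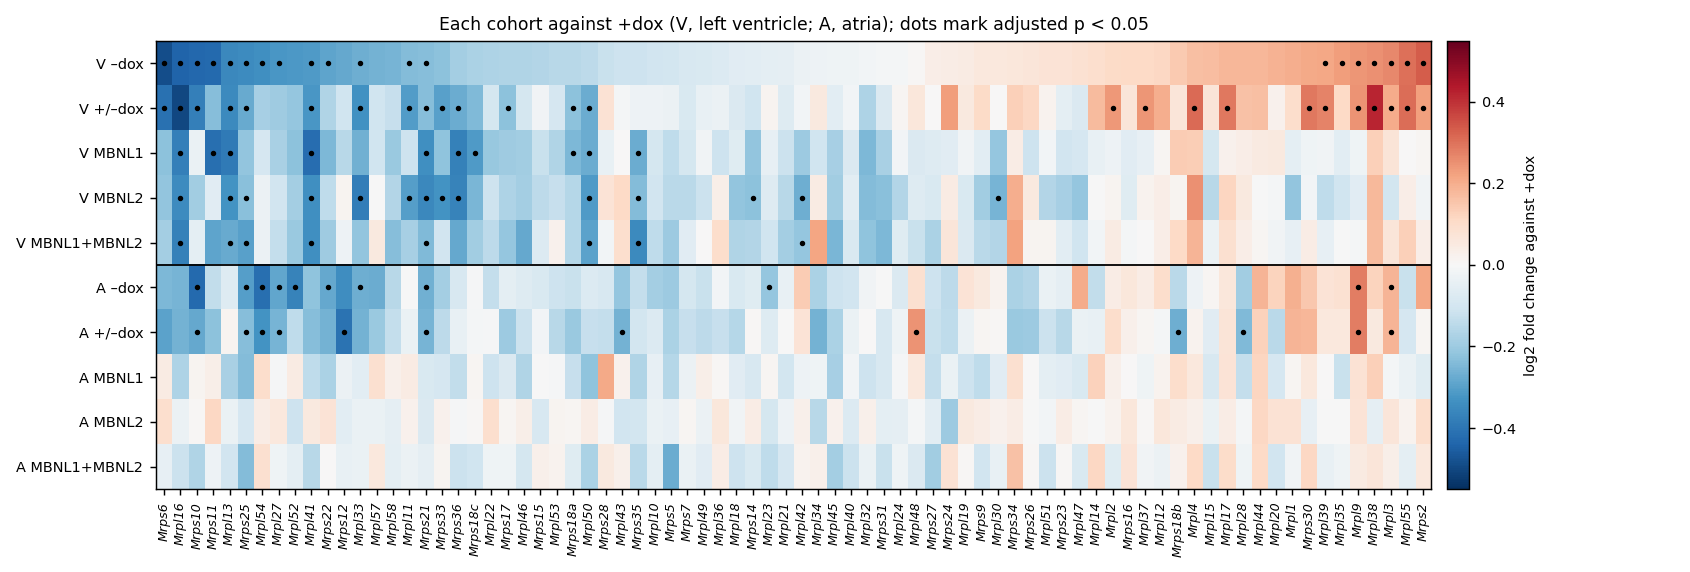
Colour gives the log2 fold change of each member (columns, ordered by the –dox ventricle) in each cohort against +dox of the same chamber (rows), and dots mark an adjusted p under 0.05 in edgeR. All rows of a chamber share the same 3 +dox libraries, ventricular MBNL rows carry dots only on falls, and the atrial MBNL rows carry none.

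In the atria the same comparison of –dox with +dox mice gave 2 higher and 9 lower members (background 7.3% and 8.62%), with a median of -0.09 against 0.03 for all genes, and none reached 1.5-fold (background 2.83% and 2.4%). Mrps10 was 18.1, 15.7 and 14.4 CPM in +dox atria and 12.7, 12.6 and 10.7 CPM in –dox atria, without overlap (-0.43 ± 0.09, edgeR adjusted p = 0.00109). Mrpl54, of the large subunit, was 30.7, 28.6 and 27.6 CPM with and 22.7, 21.6 and 20.9 CPM without dox and did not overlap (-0.42 ± 0.07, edgeR adjusted p = 1.32e-04). Mrps25 (-0.30 ± 0.07) and Mrps22 (-0.28 ± 0.10) were also lower, as was Mrpl52 (-0.37 ± 0.12), whose groups overlapped. Mrpl9, near the stalk through which tRNA leaves, rose from 26.0, 25.7 and 21.2 CPM to 30.7, 28.8 and 29.1 CPM (0.28 ± 0.08, edgeR adjusted p = 0.0112), and Mrpl3 rose by 0.19 ± 0.06. Of 26 small subunit genes 4 were called, all lower, where 8.62% of all genes were lower. Summed over the family, atria held 4117 to 4184 TPM in –dox, 3990 to 4062 in +/–dox and 4464 to 4652 in +dox mice. Sums in CPM overlapped, at 2089 to 2317, 2113 to 2281 and 2185 to 2460.

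Among the 11 called members, 9 had groups that did not overlap. Of the 11 calls, those of Mrps10, Mrpl54 and Mrps25 held whichever 1 library was left out. The count fell to 4 without library 1 and 6 without library 2 of the +dox atria, and to 5 and 7 without libraries 1 and 2 of the –dox atria. On the log2(TPM + 1) scale 1 was higher and 14 lower (5.92% and 11.3% of all genes). Endothelial markers summed to 469 to 488 CPM in +dox and 607 to 650 CPM in –dox atria, and their part in these changes was not tested.

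Atria of +/–dox mice had 3 members higher and 9 lower than +dox atria (background 5.4% and 7.21%), with a median of -0.11, and none reached 1.5-fold (background 2.01% and 1.98%). Mrps12, at the decoding site of the small subunit, was 13.8, 13.1 and 12.4 CPM in +dox and 10.5, 9.96 and 9.24 CPM in +/–dox atria, all lower (-0.40 ± 0.12, edgeR adjusted p = 0.0253). Mrpl54 was lower by 0.33 ± 0.07, Mrps18b by 0.27 ± 0.08 and Mrpl43 by 0.26 ± 0.08 on the log2 scale. Mrpl9 (0.28 ± 0.08), Mrpl48 (0.25 ± 0.07) and Mrpl3 (0.19 ± 0.06) were higher. Among the 12 called members, 11 had groups that did not overlap. Of the 12 calls only that of Mrpl54 held whichever 1 library was left out, and that of Mrpl3 was lost each time. The count was 3 and 2 without libraries 1 and 2 of the +dox atria, and 6 and 4 without libraries 1 and 3 of the +/–dox atria. On the log2(TPM + 1) scale 1 was higher and 19 lower (3.73% and 10.9% of all genes). Endothelial markers summed to 538 to 593 CPM in +/–dox and 469 to 488 CPM in +dox atria, and cardiomyocyte markers to 62369 to 70428 and 51564 to 57810 CPM, and their part was not tested. Atria of –dox and +/–dox mice differed in 0 members (edgeR and DESeq2, background 0.0052% and 0.0156%), with 2 higher and 2 lower at an unadjusted p under 0.05, where 2.43% and 2.28% of all genes were.

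No member was called in the atria of the MBNL cohorts against +dox, with edgeR or with DESeq2. The shares of all genes called higher and lower were 0.229% and 0.12% with MBNL1, 0.0104% and 0% with MBNL2 and 0.354% and 0.333% with both. At an unadjusted p under 0.05, 1 member was higher and 4 were lower with MBNL1, against 3.86% and 4.05% of all genes, none with MBNL2 (2.23% and 2.09%), and 5 were lower with both (4.83% and 5.18%). The median SE of a member was 0.09 on the log2 scale in these comparisons, as in the ventricle.

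**Figure D5:**
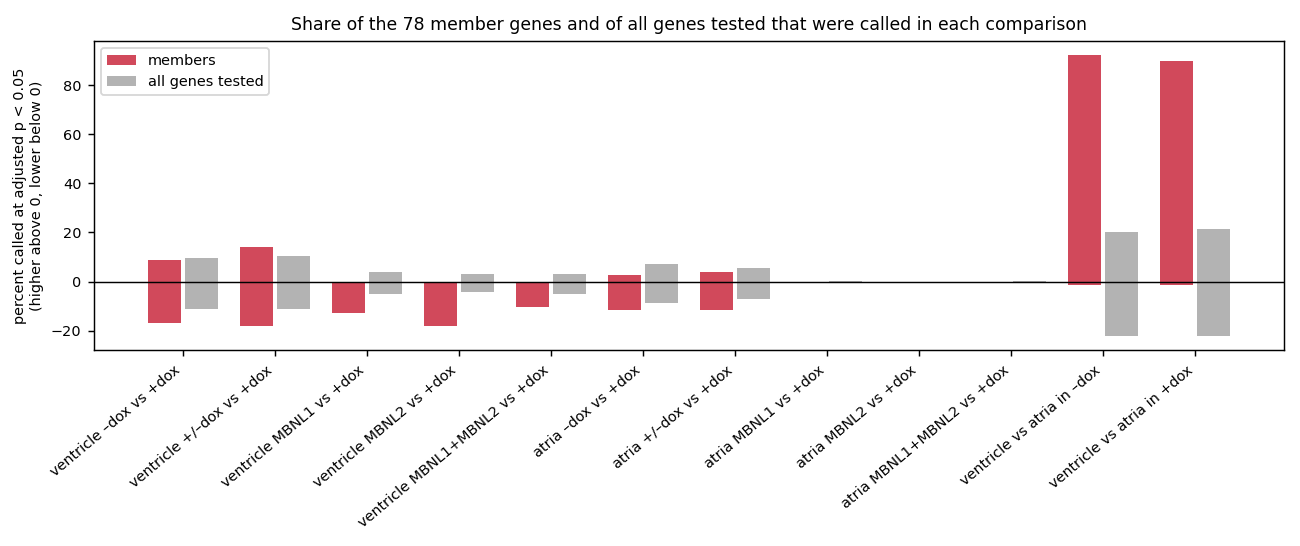
Bars give the percent of the 78 members (red) and of all 19231 genes tested (grey) called at an adjusted p under 0.05 in edgeR, higher above 0 and lower below 0, in 12 comparisons. In –dox mice 92.3% of members are called higher in the ventricle against 20.3% of all genes. In the cohort comparisons the longest red bars on the lower side reach 17.9%, in the MBNL2 and the +/–dox ventricle, against 4.31% and 11.1% of all genes.

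Whether the difference between –dox and +dox mice itself differed between chambers was tested with an interaction term. With edgeR 0 members were called (background 0.541% and 0.489%), while 3 were higher and 1 lower at an unadjusted p under 0.05 (5.48% and 5.55% of all genes), and DESeq2 called 2, both higher. These 2 were Mrpl28 and Mrpl55, both named after their values were seen. Mrpl55 was 18.8, 18.5 and 18.7 CPM in the +dox ventricle and 24.7, 22.3 and 22.1 CPM in the –dox ventricle, which do not overlap. In the atria it was 13, 11.6 and 10.7 CPM with and 11.5, 11.5 and 9.40 CPM without dox, which overlap. The difference between chambers was 0.43 ± 0.13 (edgeR adjusted p = 0.11), and its adjusted p ran from 0.023 to 0.21 over 10 ways of fitting, 6 of which called it. With the library number as a block within cohort, which pairs the chambers, 1 member was called, Mrpl55 (edgeR adjusted p = 0.033). For Mrpl28 the difference was 0.38 ± 0.11 (edgeR adjusted p = 0.10), with 3 of 10 calling it and adjusted p from 0.034 to 0.17. Mrps18b (0.29 ± 0.11) and Mrpl13 (-0.28 ± 0.11) had the other values under an unadjusted p of 0.05.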

How the data were processed

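RNA from the left ventricle and atria of 21-week-old CUG960 mice was sequenced from 250 ng of total RNA with a stranded poly(A) protocol. According to the submitters' processing notes, the authors aligned reads with STAR 2.7.10b to mm10 and estimated levels with RSEM 1.3.1. The expected counts they deposited are unnormalized RSEM estimates per gene symbol, and the deposited TPM values are corrected for transcript length and scaled per library. The strand setting of the count is not given in the sources used here.

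Expected counts were rounded and tested with edgeR 4.0.16 (limma 3.58.1, R 4.3.3): TMM, the default filter on low counts, 12 group means over 36 libraries and robust quasi-likelihood fits. P values were adjusted over 19231 genes within each of 15 comparisons at 0.05, and CPM are TMM-scaled. DESeq2 1.42.0, limma on log2(TPM + 1) or log2(TPM + 0.1) and other settings served as alternatives. On the log2(TPM + pseudocount) scale the change of low genes is understated. Depth, 55031987 to 97091184 counts, gave every member at least 565 counts. Scripts were tested on simulated data.

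The digits of the library names form 2 sets: libraries 1 and 2 of all cohorts but MBNL1+MBNL2, and the rest. The study took both chambers from the same mice, and library numbers come from the labels. Same-numbered ventricle and atria libraries deviated together, with correlations of 0.12 to 0.24 in –dox and 0.15 to 0.26 in +dox mice, so both were also fitted with a block. No pair of replicates agreed within sampling noise (chi-square per degree of freedom of 7.06 or more). Sex was read from Xist and Y-linked counts and had no term of its own in any fit. It coincides with the library set in all cohorts but MBNL1+MBNL2, whose mice were all male.

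The members and gene lists were chosen with earlier results of these data known. Named were 12 genes fixed for their roles, the 5 highest and 5 lowest by mean TPM, the 4 largest rises and falls called without overlap in each comparison, called members against the sign of the members' median, and up to 3 genes per list by adjusted p. Any others were named after their values were seen. Coordinates are from GENCODE M21 on GRCm38. Sequences and starts are from RefSeq (GRCm38.p6).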

Additional observations from a re-analysis of the deposited data

Results flagged for a closer look

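Mrpl28, a large subunit gene, differed in direction between the chambers when +/–dox mice were compared with +dox mice. In the ventricle its log2 fold change was 0.1601, with 111, 103 and 102 CPM in +/–dox and 91.7, 102 and 89.7 CPM in +dox mice, so each +/–dox library was higher, but the change was not called (edgeR adjusted p = 0.15). In the atria it was -0.2429, with 53.2, 54.2 and 49.5 CPM in +/–dox and 67.4, 61.6 and 56.7 CPM in +dox mice, so each was lower (edgeR adjusted p = 0.038, and up to 0.25 with 1 library left out). The difference between these values was not tested. No cause was tested.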

How the results depend on the processing

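Of 150 counts of called members under other settings, 111 were within 1.5 times of those reported. Of 1260 values for single genes, 1029 kept direction and side of the threshold, 223 lost the call and 8 reversed, and the causes were not tested. Without a filter on low counts the count was 13 in the –dox ventricle, 9 in the MBNL2 ventricle, 7 in –dox atria and 4 in +/–dox atria. With libraries of 1 chamber only it was 13 (–dox), 5 (MBNL1), 3 (MBNL2) and 2 (MBNL1+MBNL2) in the ventricle. In the MBNL1+MBNL2 ventricle it was 5 with DESeq2 size factors (3.61% and 4.28% of all genes higher and lower) and 3 with the library set as a term. Shares of all genes called are not given in this report without the filter, with 1 chamber, the library set, a block or a left-out library. Counts under those settings show only how far the calls depended on them. A fold of at least 1.5 left 0 in each cohort comparison with calls, 41 between chambers in –dox and 38 in +dox mice. Limma on log2(TPM + 1), on log2(TPM + 0.1) and on TPM rescaled over nuclear genes (added after seeing the data) gave 4, 4 and 6 in the MBNL2 ventricle, 20, 19 and 25 in +/–dox atria, 32, 32 and 45 between chambers in –dox mice, and 34, 34 and 43 in +dox mice. The last gave 18 in –dox atria (5.91% of all genes higher and 12.8% lower). For the difference between chambers in the –dox against +dox change, DESeq2 gave 2, the library set 2, log2(TPM + 1) 1 and rescaled TPM 2.

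With the replicate number as a block, counts were 1 in MBNL1+MBNL2 atria and 1 for the difference between chambers, also with the block within cohort. The block changed no other count by over 1.5 times. Same-numbered cohort and +dox libraries correlated between -0.12 and 0.29, and 14 of 30 correlated best with their own number, so these numbers were not taken as pairs.

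Between chambers, the 2 TPM scales reversed Mrpl58 (-0.1427 and -0.1463 in –dox, -0.0568 and -0.0581 in +dox mice) and Mrps30 (-0.0045 and -0.0049, -0.0599 and -0.0668).

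Leaving out 1 library gave 12 to 19 called members in –dox, 14 to 21 in +/–dox, 5 to 9 in MBNL1, 3 to 8 in MBNL2 and 1 to 13 in MBNL1+MBNL2 ventricles. It gave 4 to 11 in –dox and 2 to 15 in +/–dox atria, 70 to 72 between chambers in –dox and 69 to 71 in +dox mice, and 0 elsewhere. With 3 libraries a group, the median SE of a member was 0.09 on the log2 scale.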
